A study of Mus musculus with 26 samples.

Results

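Proximal T cell receptor signalling genes are followed here through sorted mouse CD4+ T cells. The members were chosen by symbol, as 34 genes that encode the receptor's signalling chains and coreceptors, the kinases and adaptors next to it, the enzymes they switch on, the NFAT factors and the brakes on all of these. All 34 were among the 24411 gene symbols of the count table, and all 34 passed the filter on low counts that left 12227 genes for testing. Poly(A) RNA of cells sorted from spleen and lymph nodes (C57BL6/J strain) was sequenced, with 2 libraries in each of 13 groups.

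All mice carried an hCD2 (human CD2) reporter in the Foxp3 gene, which encodes the factor that defines regulatory T cells (Treg). In the germline set, WT Treg (CD4+hCD2+) and Tconv (CD4+hCD2-) came from Foxp3-IRES-hCD2 mice and BATFKO Treg (CD4+hCD2+) from the same line with Batf-/-. The label of the Tconv libraries gives Treg as the cell type beside the hCD2- gate, and the title was followed. In the YFP set, WT Treg YFP and BATFcKO Treg YFP (CD4+YFP+hCD2-) came from Foxp3-IRES-YFPCre/Foxp3-IRES-hCD2 mice, the latter also Batfflox/flox, so that Foxp3 drove the Cre in both groups. Foxp3R397W Treg (Foxp3R397W-IRES-hCD2/Foxp3-IRES-GFP) and Foxp3KO Treg (Foxp3fs101-IRES-hCD2/Foxp3-IRES-GFP) were each sorted as CD4+hCD2+GFP- beside a control with Foxp3WT-IRES-hCD2/Foxp3-IRES-GFP. In all 4 of these groups the mice carried the GFP-marked Foxp3 allele as well, and the gate kept cells without GFP. The sorted set held cTreg (CD4+hCD2+CCR7hiCD62LhiCD44lo), eTreg (CD4+hCD2+CCR7loCD62Llo), Tnaive (CD4+hCD2-CCR7hiCD62LhiCD44lo) and Teff (CD4+hCD2-CCR7loCD62Llo), all from Foxp3-IRES-hCD2 mice. Animal ages, and whether libraries of a group came from separate animals, are not given in the sources used here, so p-values measure only the spread between these samples, which may be technical.

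The T cell receptor has no enzyme of its own. When it binds antigen, Lck, held by CD4, phosphorylates the CD3 chains and Cd247, Zap70 docks there and phosphorylates the adaptors Lat and Lcp2, and the complex they build activates phospholipase C. That enzyme makes a calcium signal, which brings NFAT factors into the nucleus, and diacylglycerol, which activates Prkcq, through it the Bcl10 and Malt1 complex, and Rasgrp1 until diacylglycerol kinases remove it. Treg depend on this signal for their development and for the passage to the effector state, and signal through it differently from conventional cells.

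Library totals lay between 5615929 and 34613707 reads. Foxp3 and Batf checked the labels: Foxp3 was at 404 to 505 CPM (counts scaled with TMM to a common library size) in WT Treg and 2.57 to 4.07 in Tconv, and at 109 to 113 in Foxp3KO Treg against 326 to 348 in its control. Batf was at 6.83 to 7.22 CPM in BATFKO Treg against 46.1 to 82.9 in WT Treg, and at 15.9 to 19.5 in BATFcKO Treg YFP against 58.5 to 67.8 in its control. The R397W substitution left Foxp3 RNA in place, at 343 to 359 CPM against 380 to 452, which checks no label. The labelled T cell identity had its markers: Cd3e, Cd3d, Cd3g and Cd4 together gave 2131 to 3562 CPM in every library. Spread within a pair was widest in the germline set, where the chi-square of the counts over its degrees of freedom came to 21.9 to 30.3, and was 3.04 to 7.90 in the other 10 groups.

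Together the 34 members made up 15124 to 18539 CPM per library. Per kilobase of exon, Dgka was the most abundant, with a median of 372 CPM per kilobase over the 26 libraries, and Lck followed with 351, Lat with 274, Cd4 with 213 and Cd3d with 211. Themis was the least abundant at 7.48 CPM per kilobase, and it also varied most, by 5.20-fold between its lowest group mean (BATFKO Treg) and its highest (Teff). Nfatc1, Cd28, Sla and Malt1 came next, with group means that spanned 3.41-fold, 3.27-fold, 3.14-fold and 2.83-fold. Vav1, a guanine nucleotide exchange factor, Plcg1, the phospholipase itself, and Lck varied by 1.32-fold, 1.37-fold and 1.38-fold.

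**Figure D1:**
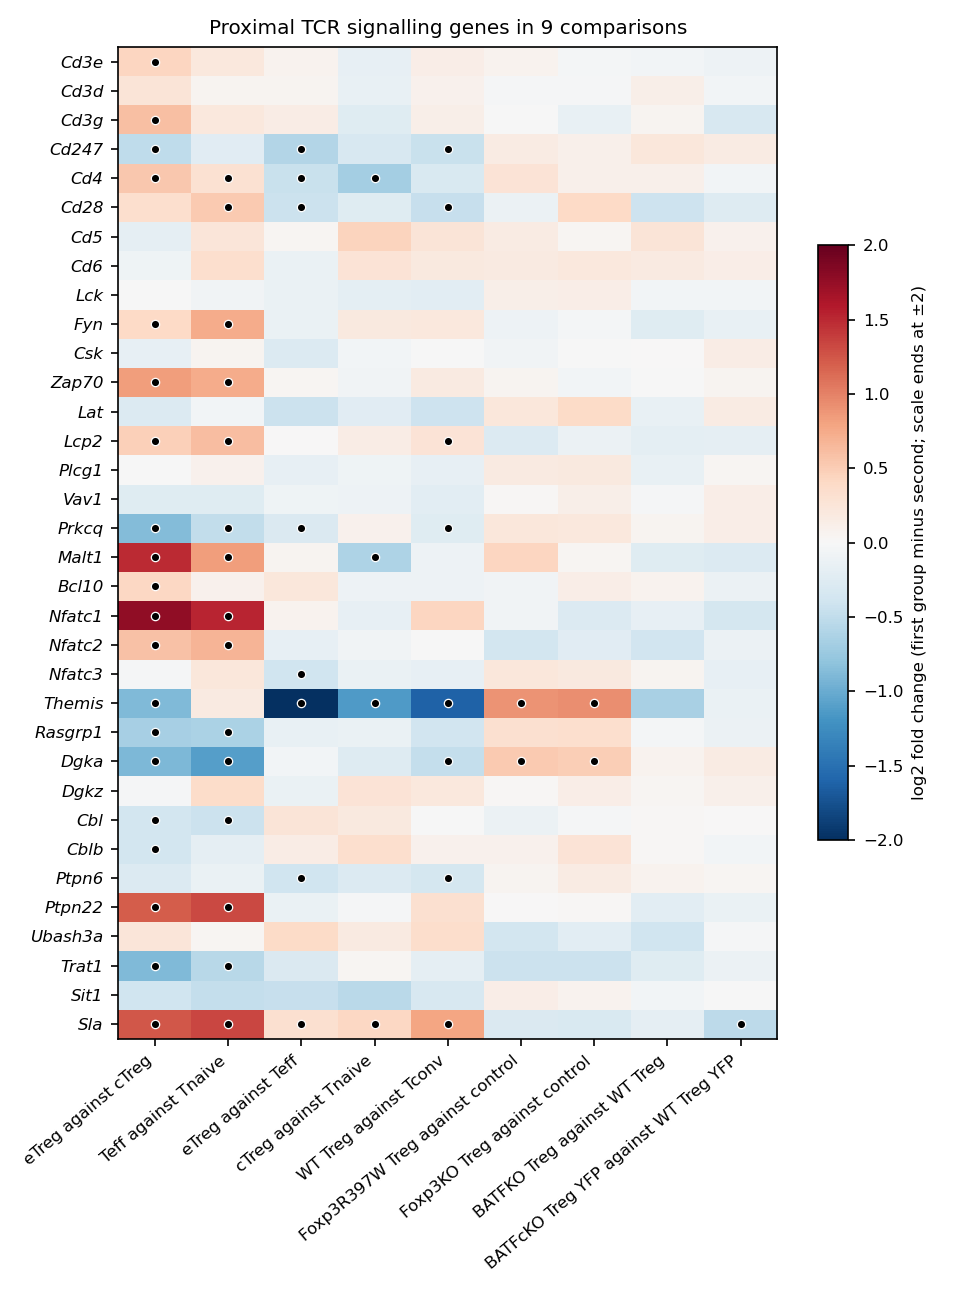
Log2 fold change of the 34 members (rows, in order of role) in 9 comparisons (columns), first group minus second, with the colour scale ending at ±2; a black point marks an edgeR adjusted p below 0.05. The points gather in the first 2 columns, with 20 members in eTreg against cTreg and 15 in Teff against Tnaive, and Themis reaches beyond the scale in eTreg against Teff at -2.20.

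The comparison of eTreg with cTreg asks how the pathway's RNAs differ between Treg of the CCR7loCD62Llo and the CCR7hiCD62LhiCD44lo phenotype. Of the 34 members, 20 passed the test (edgeR adjusted p below 0.05), 12 higher and 8 lower in eTreg, which is 58.8% of the members, while 31.1% of all tested genes passed (18.8% higher and 12.3% lower). The members that rose included receptor chains (Cd3e, Cd3g, Cd4), kinases (Fyn, Zap70), Lcp2, the Bcl10 and Malt1 pair and both Nfatc1 and Nfatc2. Those that fell included Prkcq, Rasgrp1, Dgka and the ubiquitin ligases Cbl and Cblb. The members' median log2 fold change was -0.016, beside 0.0059 over all tested genes.

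Among the receptor genes, Cd3e, a signalling chain of the complex, was at 577 and 645 CPM in the 2 cTreg libraries and at 787 and 867 in the 2 eTreg libraries. Both eTreg libraries lay above both cTreg libraries, with a log2 fold change of 0.44 ± 0.09 (± SE; edgeR adjusted p = 0.0011). Cd4, the coreceptor that brings Lck, rose from 723 and 723 CPM to 1029.6 and 1074 CPM, a log2 fold change of 0.54 ± 0.11 (edgeR adjusted p = 0.00061). Cd247, the zeta chain that carries most of the docking sites for Zap70, went the other way and fell from 403 and 381 CPM to 279 and 273 CPM, a log2 fold change of -0.51 ± 0.11 (edgeR adjusted p = 0.0014). Of the other CD3 chains, Cd3g also passed as higher, at 447 and 496 CPM in cTreg and 654 and 774 in eTreg, and Cd3d at 399 and 419.6 in cTreg against 438 and 546 in eTreg had higher values in eTreg that did not pass (edgeR; Cd3d was called with DESeq2). Values of Cd247 are uncertain, because 3007 of its 5329 exon bases are also exon of Pou2f1 on the other strand (77.2 to 168 CPM over the libraries) and no source used here gives the strand setting of the counting. In bulk libraries, fewer cells with an RNA and less RNA per cell cannot be told apart.

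**Figure D2:**
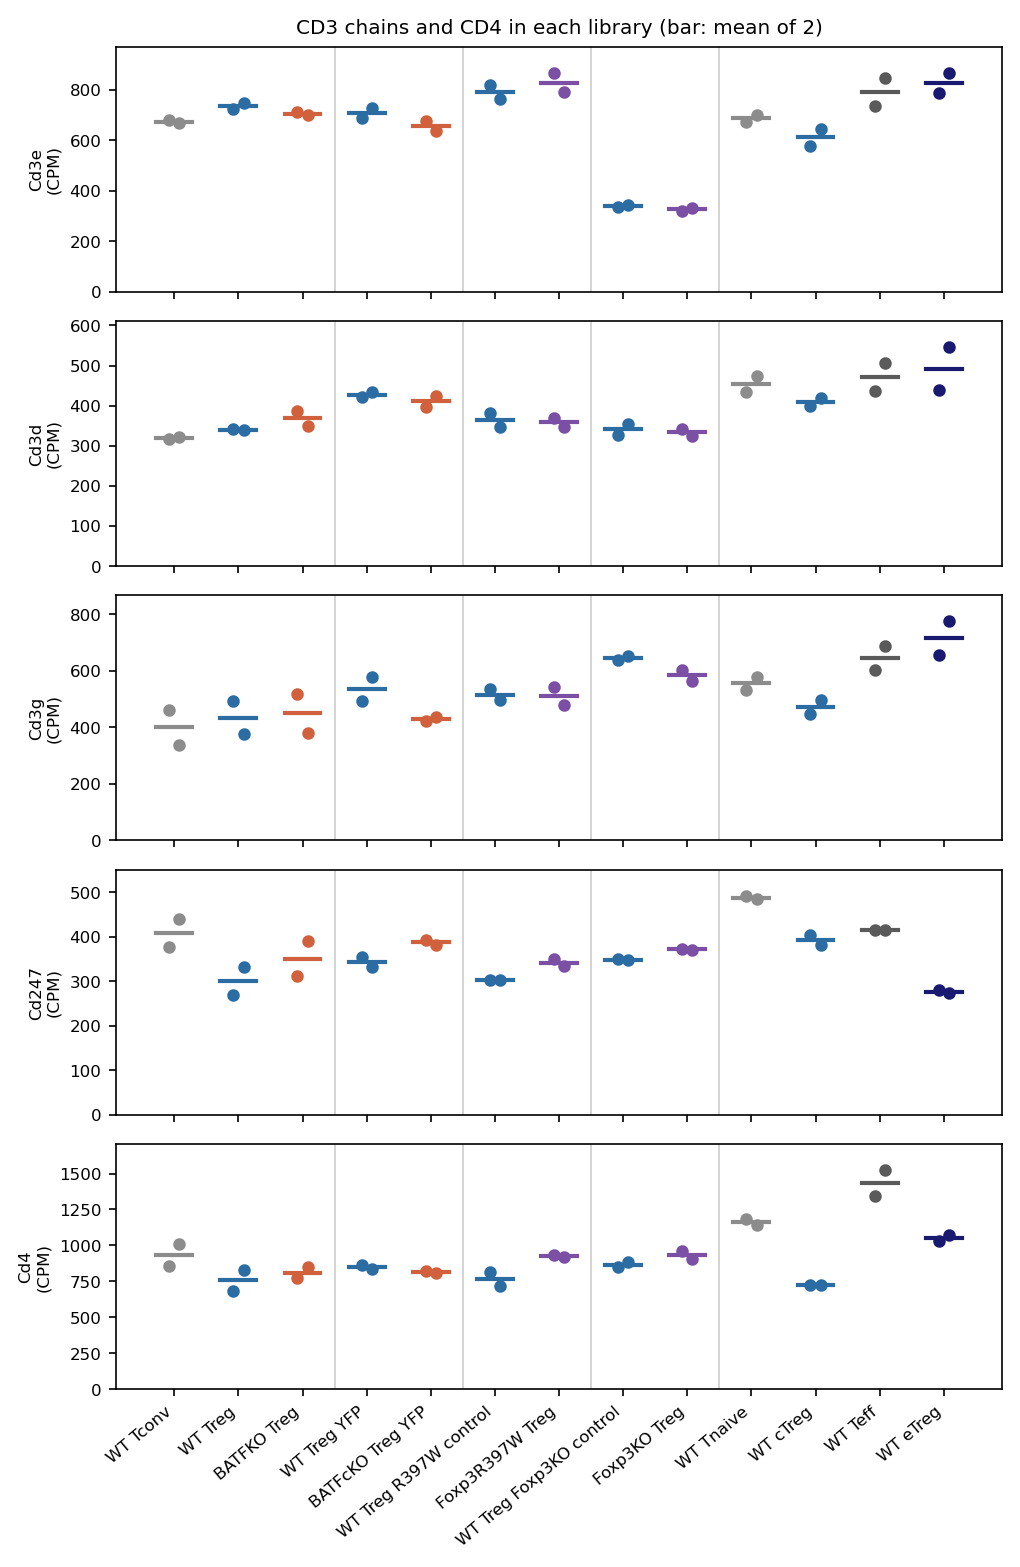
CPM of Cd3e, Cd3d, Cd3g, Cd247 and Cd4 in each of the 26 libraries (points), with the group mean of 2 libraries as a bar and grey lines between the sets; blue stands for wild-type Treg, orange for Batf mutants, purple for Foxp3 mutants and grey for Tconv and Tnaive, with the darker grey for Teff and the darker blue for eTreg. Cd247 is highest in both Tnaive libraries, at 485 and 492 CPM, and Cd3e lies between 321 and 342 CPM in all 4 libraries of the Foxp3KO set.

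Of the kinases, Fyn, a Src-family kinase beside Lck, rose from 632 and 611 CPM in cTreg to 789 and 851 in eTreg (0.40 ± 0.08, edgeR adjusted p = 0.001). Zap70 was at 366 and 330.0 CPM in cTreg and at 579.8 and 664 in eTreg and passed as well. Lck itself did not pass, at 1064 and 1030.3 CPM in cTreg and 1009 and 1070.5 in eTreg, with a 95% interval of the log2 difference from -0.28 to 0.26. Lcp2, the SLP-76 scaffold that Zap70 phosphorylates, rose from 414 and 410.1 CPM to 569.9 and 573, a small change with little spread between libraries (0.47 ± 0.08, edgeR adjusted p = 0.00019). Lat, the membrane scaffold that Lcp2 joins, was at 799 and 759 CPM in cTreg and 668 and 627 in eTreg and did not pass.

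Below the scaffolds, the members that depend on diacylglycerol or act on it went different ways. Malt1, a protease that acts on the way to NF-kB, rose from 122.8 and 118 CPM in cTreg to 306 and 376 in eTreg, a log2 fold change of 1.50 ± 0.15 (edgeR adjusted p = 4.3e-07). Bcl10, its adaptor, was at 51.7 and 60.1 CPM in cTreg and 70.2 and 78.1 in eTreg and passed. Prkcq, a kinase that acts upstream of both, fell from 559 and 575 CPM to 307 and 314 (-0.87 ± 0.08, edgeR adjusted p = 1.3e-07). Rasgrp1, which loads Ras in response to diacylglycerol, fell from 519 and 529 CPM to 356 and 309 (-0.66 ± 0.14, edgeR adjusted p = 0.001). Dgka, a kinase that removes diacylglycerol, fell from 1944 and 1843 CPM to 1041 and 996 (-0.90 ± 0.09, edgeR adjusted p = 2.2e-07). No eTreg library reached any cTreg library for these 3 genes, whereas Dgkz, the other kinase of that kind among the members, was at 1025 and 943 in cTreg against 975 and 961 CPM in eTreg and did not pass.

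The change with the highest fold was that of Nfatc1, a calcium-regulated transcription factor whose own gene is induced by receptor signals. It was at 196 and 208 CPM in cTreg and at 641 and 738 in eTreg (1.77 ± 0.18, edgeR adjusted p = 2.6e-07). Nfatc2 was at 149 and 153 in cTreg against 220.1 and 234 CPM in eTreg and passed, and Nfatc3, at 373 and 398 in cTreg against 371 and 385 in eTreg, did not. Among the brakes, Sla, an adaptor that promotes the loss of receptor chains from the surface, rose from 207 and 215 CPM to 479 and 514 (1.24 ± 0.10, edgeR adjusted p = 2.8e-08). Ptpn22, a phosphatase of Lck and Zap70, rose from 175 and 175 CPM to 396.7 and 413 (1.21 ± 0.12, edgeR adjusted p = 3.0e-07). Not all brakes rose: Cblb was at 250.2 and 253 CPM in cTreg and 192 and 199 in eTreg, and Cbl at 297 and 266 in cTreg against 234 and 205 in eTreg, and both passed as lower. Trat1, an adaptor that stabilises the receptor complex, was lower in eTreg at 42.9 and 36.4 CPM against 76.8 and 70.1, and so was Themis, at 51.1 and 43.2 against 87.7 and 87.1. Without cTreg library 1 the calls of Bcl10, Cbl, Cblb, Cd3g and Nfatc2 were lost (edgeR adjusted p from 0.059 to 0.19), and without eTreg library 2 those of Bcl10, Cbl, Cd3g, Nfatc2 and Zap70 (0.077 to 0.17). Zap70 and Cblb were also lost without cTreg library 2 (0.06 and 0.074), Cblb without eTreg library 1 (0.064), and Fyn and Bcl10 when no filter on low counts was applied (0.064 and 0.065).

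The matching comparison of conventional cells, Teff with Tnaive, gave 15 of 34 members, 10 higher and 5 lower in Teff (44.1%, beside 35.3% of all tested genes, 21.2% higher and 14.0% lower). The members' median log2 fold change was 0.13, beside 0.0094 over all tested genes. Of the 15, 14 had also passed in eTreg against cTreg, all 14 in the same direction, which is 70% of the 20 eTreg calls and 93.3% of the Teff calls; the 2 comparisons share no library. Over all tested genes, 2832 were called in both, which is 74.5% of the eTreg calls and 65.7% of the Teff calls, and 97.6% of the 2832 had the same direction. The 14 were Cd4, Fyn, Zap70, Lcp2, Malt1, Nfatc1, Nfatc2, Ptpn22 and Sla on the higher side and Prkcq, Rasgrp1, Dgka, Cbl and Trat1 on the lower.

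**Figure D3:**
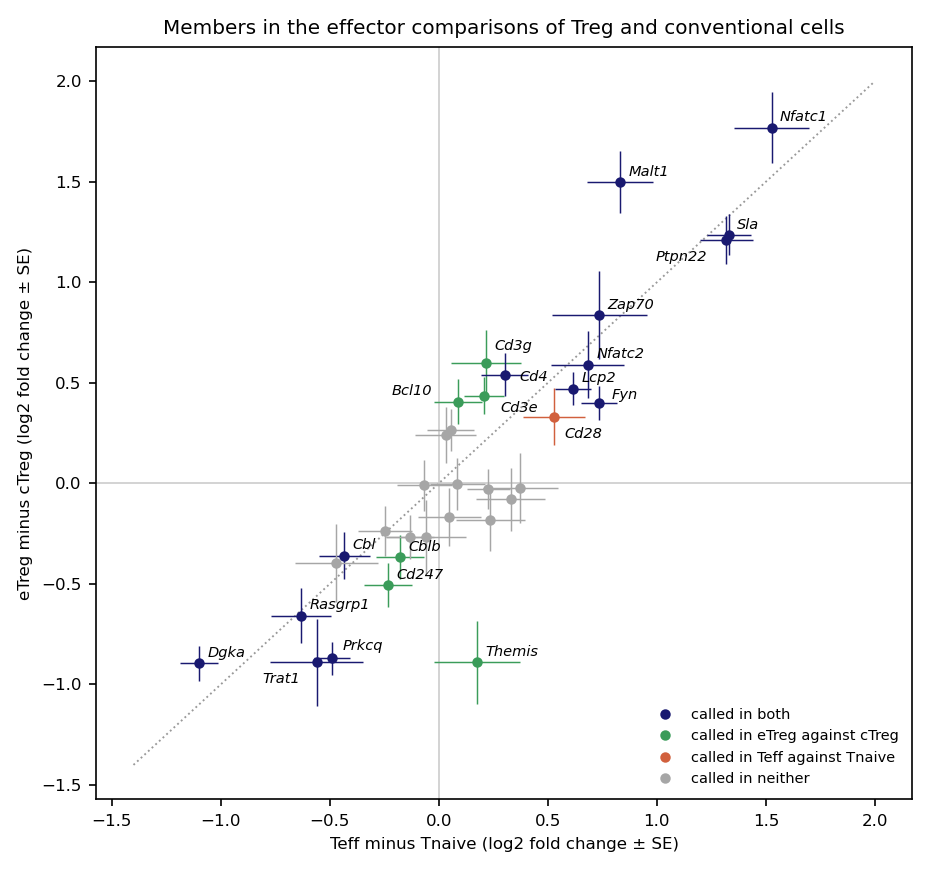
Log2 fold change ± SE of each member in Teff against Tnaive (horizontal axis) and in eTreg against cTreg (vertical axis), with equal change on the dotted line; colours show in which comparison a member was called. Nfatc1, Sla, Ptpn22 and Dgka lie far out on both axes, and Themis lies low on the vertical axis at -0.89 and near 0 on the horizontal one at 0.18.

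Nfatc1 rose from 232 and 222 CPM in Tnaive to 575 and 732 in Teff (1.53 ± 0.17, edgeR adjusted p = 1.1e-06), and Nfatc2 from 166 and 151 to 253 and 256 (0.68 ± 0.17, edgeR adjusted p = 0.0031). Sla rose from 160.0 and 156 CPM to 405 and 389 (1.33 ± 0.10, edgeR adjusted p = 6.4e-09), and Ptpn22 from 183 and 172 to 435 and 451 (1.32 ± 0.12, edgeR adjusted p = 7.6e-08). For these 4 genes both Teff libraries exceeded both Tnaive libraries. Fyn rose from 552 and 533 CPM to 845 and 961 (0.74 ± 0.08, edgeR adjusted p = 1.1e-06) and Lcp2 from 385 and 360.3 to 546 and 596 (0.62 ± 0.08, edgeR adjusted p = 8.2e-06). Malt1 rose from 191 and 177 CPM to 272 and 384, with the wider spread in Teff (0.83 ± 0.15, edgeR adjusted p = 0.00024). Cd28, the costimulatory receptor that lowers the threshold of activation, was the 1 member called here and not in eTreg against cTreg: it rose from 355 and 299.7 CPM to 497 and 448 (0.53 ± 0.14, edgeR adjusted p = 0.0059).

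On the lower side, Dgka fell from 2188 and 2328 CPM in Tnaive to 1026 and 1082 in Teff (-1.10 ± 0.09, edgeR adjusted p = 1.1e-08). Prkcq fell from 529 and 539 CPM to 360.0 and 401 (-0.49 ± 0.08, edgeR adjusted p = 8.8e-05), and Rasgrp1 from 564 and 582 to 408 and 331 (-0.63 ± 0.14, edgeR adjusted p = 0.0012). The same 3 genes of diacylglycerol signalling were thus lower in the CCR7loCD62Llo cells of both lineages, and Cbl, a ligase that marks activated kinases for degradation, also fell (-0.43 ± 0.12, edgeR adjusted p = 0.007). Zap70 at 376 and 355 against 552 and 664 CPM and Cd4 at 1183 and 1141 against 1343 and 1523 passed as higher in Teff, and Trat1 at 75.1 and 67.8 against 61.7 and 35.3 as lower. The Teff libraries also held RNAs of genes listed as markers of other cells. The 5 natural killer genes summed to 402 and 282 CPM against 27.2 and 30.2 in eTreg and 10.3 to 11.6 in Tnaive. Of these, Nkg7 was the highest in Teff, at 176 and 130 CPM, and then Klrb1c, at 126 and 84.0. The 11 myeloid and dendritic genes summed to 379 and 156 CPM against 48.2 to 95.5 in those groups. Which cells these RNAs came from was not tested. Of the defining genes, Ncr1 was at 0.879 and 1.09 CPM and Siglech at 92.3 and 19.98 in Teff, Siglech was at 0 in eTreg, and their part in the results for Teff was not tested.

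Without Tnaive library 1 or Teff library 2 the calls of Cbl, Cd4, Trat1 and Zap70 in Teff against Tnaive were lost (edgeR adjusted p from 0.05 to 0.21 and from 0.11 to 0.53). Without Tnaive library 2 those of Cd28, Cd4, Trat1 and Zap70 were lost (0.082 to 0.17), and without Teff library 1 that of Cd28 (0.059). Cd4 was also lost with no filter on low counts (0.18), and Cbl and Trat1 in a fit of the 4 libraries compared alone (0.054 and 0.22).

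A test of the difference between the 2 comparisons, eTreg minus cTreg against Teff minus Tnaive, called 1 member, Themis, while 5.42% of all tested genes were called (1.57% with a higher and 3.85% with a lower change in Treg). Themis was at 87.7 and 87.1 CPM in cTreg and 51.1 and 43.2 in eTreg, but at 202 and 183 in Tnaive and 232 and 203 in Teff. The 2 eTreg libraries thus lay well below both cTreg libraries, and the 2 Teff libraries just above both Tnaive libraries. The difference was -1.06 ± 0.28 on the log2 scale (edgeR adjusted p = 0.031). It was not called without any 1 of cTreg library 1, cTreg library 2, eTreg library 2, Tnaive library 1, Tnaive library 2 or Teff library 1 (edgeR adjusted p from 0.067 to 0.14), and without Teff library 1 the test called Prkcq in its place. Without Teff library 2 it called 2 members, Themis and Malt1, and with DESeq2 4 members, adding Fyn, Prkcq and Malt1. Prkcq (-0.38 ± 0.11, adjusted p = 0.064) and Malt1 (0.67 ± 0.21, adjusted p = 0.086) came next and did not pass.

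Treg were set against conventional cells 3 times, in the germline set and in each phenotype of the sorted set, which asks what the Treg lineage changes in the pathway. The germline gates used no CCR7, CD62L or CD44. In that set, lineage and a differing share of CCR7loCD62Llo cells cannot be told apart. Themis was lower in Treg and Sla higher in all 3. WT Treg against Tconv called 8 of 34 members (23.5%, beside 18.7% of all tested genes), 2 higher (12.1% of all tested genes) and 6 lower (6.68%). In cTreg against Tnaive 4 were called (11.8%, beside 12.2%), 1 higher (7.91%) and 3 lower (4.29%), and in eTreg against Teff 8 (23.5%, beside 15.5%), 1 higher (8.21%) and 7 lower (7.26%). The members' median log2 fold changes were -0.054, -0.097 and -0.13, beside medians of -0.0024, -1.1e-05 and 0.00082 over all tested genes.

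Themis, an adaptor of the Lck and Ptpn6 pathway that sets signal strength in developing T cells, was at 77.4 and 52.9 CPM in WT Treg and 254 and 149 in Tconv. Although the Tconv libraries differed widely from each other, both exceeded both WT Treg libraries (-1.62 ± 0.21, edgeR adjusted p = 1.2e-05). In the sorted set it was lower in cTreg than in Tnaive (-1.14 ± 0.20, edgeR adjusted p = 0.00047) and lower in eTreg than in Teff (-2.20 ± 0.21, edgeR adjusted p = 4.3e-07). The last of these set 51.1 and 43.2 CPM against 232 and 203. Sla was at 369 and 342 CPM in WT Treg and 215 and 196 in Tconv (0.79 ± 0.10, edgeR adjusted p = 1.2e-05), and was higher in cTreg than in Tnaive (0.42 ± 0.10, edgeR adjusted p = 0.008) and in eTreg than in Teff (0.32 ± 0.10, edgeR adjusted p = 0.033). In both lineages Sla was higher in the CCR7loCD62Llo cells, so that cTreg, at 207 and 215 CPM, stayed below Teff, at 405 and 389.

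**Figure D4:**
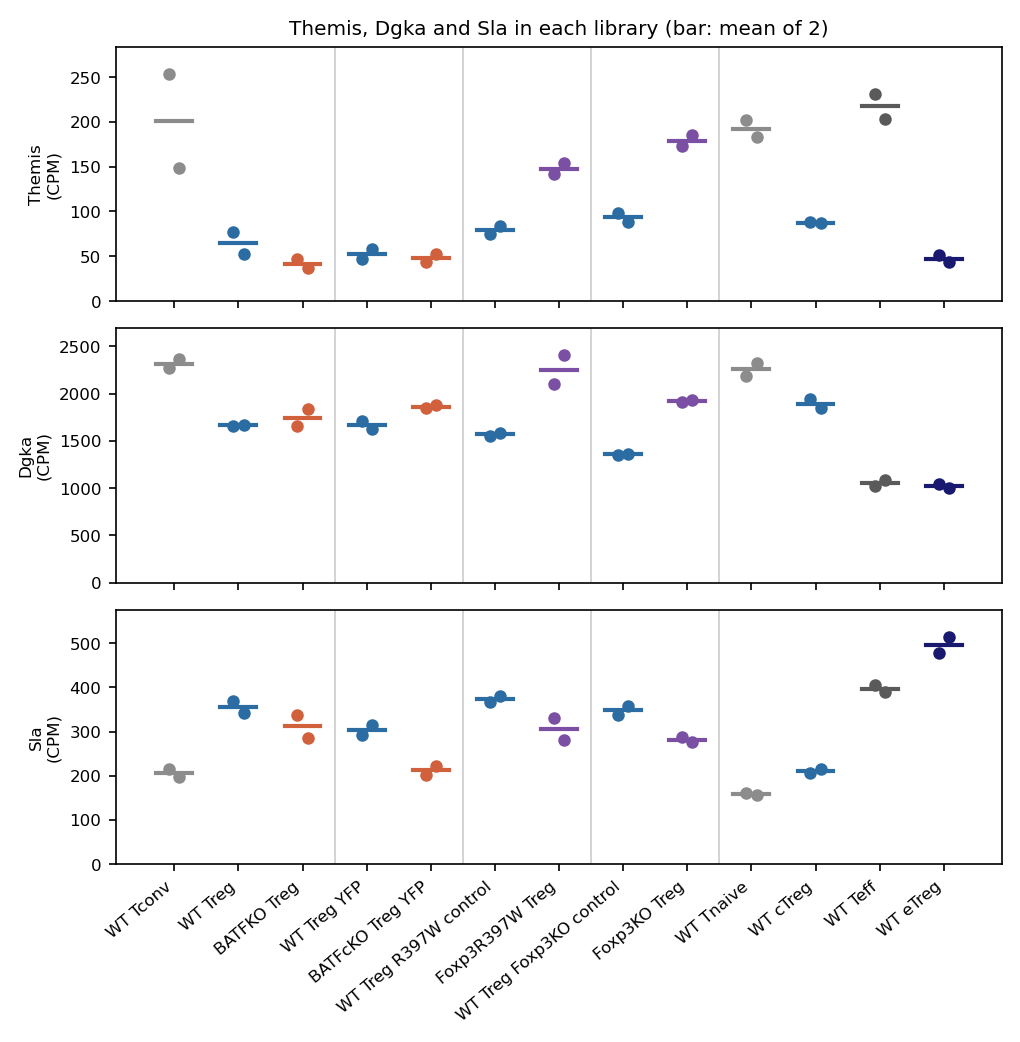
CPM of Themis, Dgka and Sla in each of the 26 libraries (points), with the group mean of 2 libraries as a bar and grey lines between the sets; blue stands for wild-type Treg, orange for Batf mutants, purple for Foxp3 mutants and grey for Tconv and Tnaive, with the darker grey for Teff and the darker blue for eTreg. Themis lies above 141 CPM in all conventional and Foxp3 mutant libraries and below 99 CPM in all other Treg libraries.

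Other receptor genes were lower in Treg in part of these comparisons. Cd247 was at 269.6 and 333 CPM in WT Treg and 378 and 439 in Tconv (-0.44 ± 0.11, edgeR adjusted p = 0.0076), and was lower in eTreg than in Teff, where it was at 416 and 416 CPM (-0.59 ± 0.11, edgeR adjusted p = 0.00074). Cd28 was at 499 and 505 CPM in WT Treg and 728 and 657 in Tconv (-0.46 ± 0.14, edgeR adjusted p = 0.026), and was lower in eTreg than in Teff (-0.44 ± 0.14, edgeR adjusted p = 0.041). Cd4 was lower in cTreg than in Tnaive (-0.68 ± 0.11, edgeR adjusted p = 0.00013), with 723 and 723 CPM against 1183 and 1141. Cd4 was also lower in eTreg than in Teff (-0.45 ± 0.11, edgeR adjusted p = 0.0061), while in the germline set its difference did not pass (-0.30 ± 0.11, adjusted p = 0.057).

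Dgka was at 1656 and 1670.0 CPM in WT Treg and 2269.6 and 2363 in Tconv (-0.48 ± 0.09, edgeR adjusted p = 0.0005), a gap well outside the spread of either pair. In the sorted set its Treg and conventional levels lay closer and did not pass. They were 1944 and 1843 CPM in cTreg against 2188 and 2328 in Tnaive, and means of 1018 in eTreg against 1054 in Teff. Prkcq was lower in WT Treg than in Tconv (-0.25 ± 0.08, edgeR adjusted p = 0.039) and in eTreg than in Teff (-0.29 ± 0.08, edgeR adjusted p = 0.017). Ptpn6, the SHP-1 phosphatase, was lower in the same 2 comparisons (-0.35 ± 0.11, edgeR adjusted p = 0.034, and -0.40 ± 0.11, edgeR adjusted p = 0.016). Lcp2 was higher in WT Treg at 492 and 517 CPM against 415 and 422 (0.27 ± 0.08, edgeR adjusted p = 0.028). Malt1 was lower in cTreg at 122.8 and 118 CPM against 191 and 177 in Tnaive (-0.61 ± 0.15, edgeR adjusted p = 0.01), and Nfatc3 lower in eTreg at 371 and 385 against 481 and 510.1 in Teff (-0.39 ± 0.10, edgeR adjusted p = 0.0092). A fit of the 4 libraries of WT Treg and Tconv alone called no member (edgeR adjusted p = 0.064 for Themis, 0.085 for Sla and 0.34 for Dgka, and 0.34 to 0.72 for the other 5), although it called 548 genes in all.

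Single libraries decided part of these calls, in WT Treg against Tconv those of Cd247, Cd28, Lcp2, Prkcq and Ptpn6. Each was lost without 2 to 3 of the 4 libraries, namely without WT Treg library 1 (Cd247, Cd28, Prkcq and Ptpn6, edgeR adjusted p from 0.072 to 0.19), WT Treg library 2 (Cd28, Lcp2, Prkcq and Ptpn6, 0.051 to 0.18), Tconv library 1 (Cd28, Lcp2 and Prkcq, 0.1 to 0.22) or Tconv library 2 (Cd247, Lcp2 and Ptpn6, 0.062 to 0.34). In cTreg against Tnaive, Malt1 was lost without cTreg library 1, cTreg library 2 or Tnaive library 1 (0.062 to 0.099) and Sla without cTreg library 2 or Tnaive library 2 (0.075 and 0.077), which left 2 calls without cTreg library 2. In eTreg against Teff, 2 members, Themis and Cd247, were left without eTreg library 1 or without Teff library 2, 4 without eTreg library 2, and 5 without Teff library 1, where Cbl was called as well; the lost members had edgeR adjusted p from 0.058 to 0.27. With no filter on low counts, WT Treg against Tconv called 5 members, losing Lcp2 (0.33), Prkcq (0.25) and Ptpn6 (0.071), and eTreg against Teff lost Prkcq (0.13) and Sla (0.21).

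Many members shifted with library number in the germline set. Between library 1 and library 2, 27 of the 34 members shifted the same way in WT Treg, BATFKO Treg and Tconv, 18 of them upward, and 10 rose by more than 0.3 on the log2 scale in all 3 groups. Such shifts were not counted over all tested genes, so whether they are particular to the members was not tested. The Zap70 libraries of WT Treg had 378 and 606 CPM, those of BATFKO Treg had 395 and 585 and those of Tconv had 331 and 539, so that every library 2 exceeded every library 1. Lat rose in each pair as well, from 625 to 896 CPM in WT Treg, from 544 to 827 in BATFKO Treg and from 829 to 1202 in Tconv. Themis shifted downward, from 77.4 to 52.9 CPM in WT Treg, from 46.6 to 36.8 in BATFKO Treg and from 254 to 149 in Tconv. The labels do not say what the 2 numbers share.

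**Figure D5:**
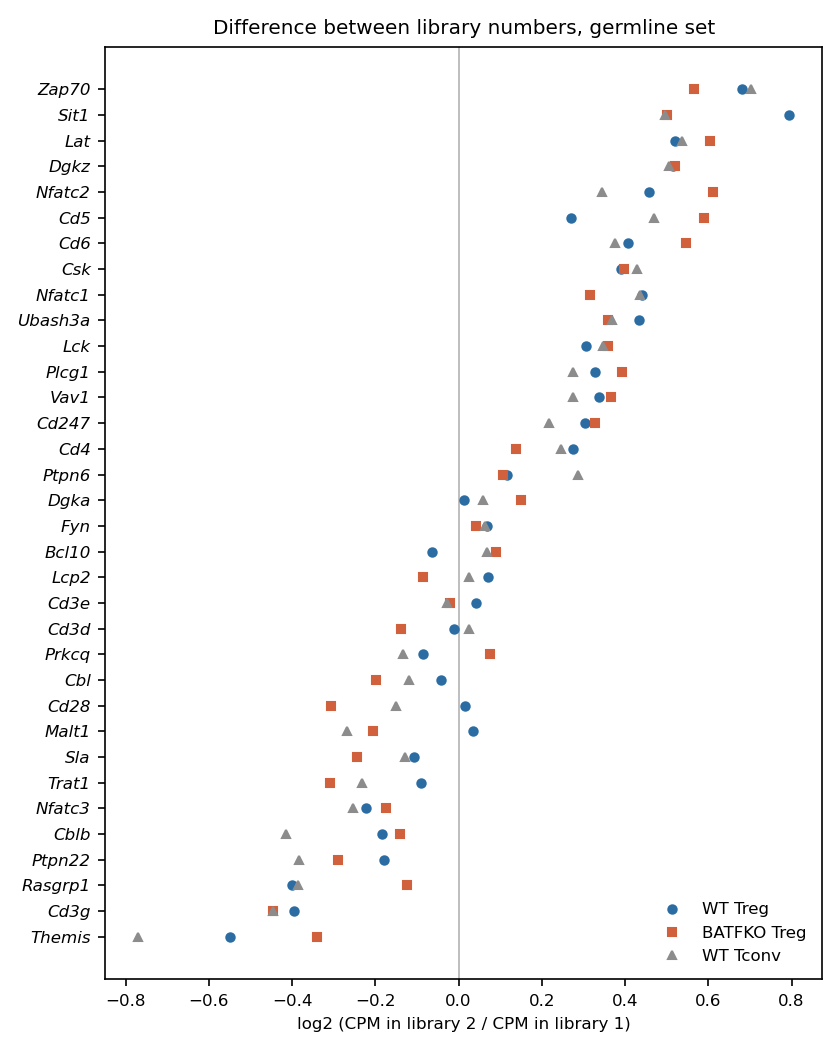
Log2 ratio of CPM in library 2 to CPM in library 1 for each member (rows, sorted by the mean ratio) in WT Treg (circles), BATFKO Treg (squares) and Tconv (triangles) of the germline set. The 3 symbols of a gene mostly lie on one side of 0, from Themis at the bottom to Zap70 at the top.

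The Foxp3 mutant comparisons ask which members depend on the factor's DNA-binding surface or on the factor itself. Both mutants called 2 of 34 members (5.88%), the same 2 genes, Themis and Dgka, and both were higher in the mutants. How far the calls of the mutants overlap over all tested genes was not counted. Of all tested genes 6.13% were called in Foxp3R397W Treg and 9.0% in Foxp3KO Treg, namely 2.18% higher and 3.94% lower in the first and 2.62% higher and 6.39% lower in the second. Library totals were 6036966 to 6831764 reads in the Foxp3R397W set and 26321134 to 34613707 in the Foxp3KO set, and the part of depth in these shares was not tested. The members' median log2 fold change was 0.057 in Foxp3R397W Treg (-0.0059 over all tested genes) and 0.084 in Foxp3KO Treg (0.011 over all tested genes).

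Themis was at 75.0 and 84.0 CPM in the control libraries and 142 and 154 in the Foxp3R397W Treg libraries (0.89 ± 0.21, edgeR adjusted p = 0.012). In the other set it was at 98.1 and 88.7 CPM in the control and 173 and 185 in Foxp3KO Treg (0.94 ± 0.20, edgeR adjusted p = 0.0041). For comparison, Themis averaged 201 ± 74.2 CPM (SD, n = 2) in Tconv of the germline set, a level from another sort set that was not tested against the mutants. Dgka was at 1554 and 1587 CPM in the first control and 2099 and 2404 in Foxp3R397W Treg (0.52 ± 0.09, edgeR adjusted p = 0.001). Its levels were 1353 and 1361 CPM in the second control and 1907 and 1928 in Foxp3KO Treg (0.50 ± 0.09, edgeR adjusted p = 0.00088). Of the exon bases of Dgka, 105 are shared with Pmel on the other strand (7.82 to 72.7 CPM), and of those of Themis, 153 with 4930519F09Rik (at most 0.177 CPM). For both genes, both mutant libraries lay above both control libraries in each set. The same 2 genes were lower in WT Treg than in Tconv, a comparison that shares no library with the mutants. Dgka did not pass in cTreg against Tnaive or in eTreg against Teff, whereas Themis passed as lower in both. The overlap between the mutants and WT Treg against Tconv, too, was not counted over all tested genes.

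Sla, higher in Treg in the lineage comparisons, was lower in both mutants without passing, at 368 and 379.9 CPM in the control against 331 and 282 in Foxp3R397W Treg (-0.29 ± 0.10, adjusted p = 0.12). The values were 338 and 358 CPM against 287 and 277 in the Foxp3KO set (-0.30 ± 0.10, adjusted p = 0.067). Lcp2 came closest to a call in Foxp3R397W Treg, at 545 and 544 CPM in the control and 425 and 473 in the mutant (-0.28 ± 0.08, adjusted p = 0.055). In Foxp3KO Treg, Cd28 was at 543 and 609 CPM against 477 and 396 in the control (0.40 ± 0.14, adjusted p = 0.088). Prkcq had nearly equal values in the 2 mutants, 0.22 ± 0.08 and 0.22 ± 0.08, neither of which passed (adjusted p = 0.15 and 0.12). At an unadjusted p below 0.05 there were 11 members in Foxp3R397W Treg and 7 in Foxp3KO Treg.

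A test of the difference between the 2 mutants called 0 members (edgeR; 1 at an unadjusted p below 0.05, Cd28, and 0 with DESeq2), while 0.0164% of all tested genes, 2 genes, were called (0.00818% in each direction). The interval of that difference was -0.55 to 0.64 for Themis and -0.28 to 0.24 for Dgka on the log2 scale. Themis was not called in Foxp3R397W Treg without control library 3, control library 4 or mutant library 2 (edgeR adjusted p from 0.055 to 0.13), nor in Foxp3KO Treg without control library 6 (0.074), which left Dgka alone. With DESeq2, 5 members were called in Foxp3R397W Treg, adding Lcp2, Prkcq and Sla, and 6 in Foxp3KO Treg, adding Cd28, Prkcq, Cblb and Sla; fits of each set's 4 libraries alone called 6 and 18. The shares of all tested genes called in these alternative fits are not given here, so the counts do not single out the members.

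The windows of 250 bases upstream of the transcription start are shown for Themis and Dgka, which moved together in the Foxp3 mutants. Those of Lcp2 and Trat1, which moved in both effector comparisons in opposite directions, are shown as well. Of the members called in both of these comparisons, Cd4, Malt1, Nfatc1 and Sla had no window and were not searched. Among the others, only Lcp2 and Trat1 had a match to any of the 4 motifs below. All windows are from RefSeq (GRCm38.p6), which matched 28 of the 34 members. Themis lies at chr10:28668360-28883818 (+ strand), Dgka at chr10:128720134-128744855 (- strand), Lcp2 at chr11:34046920-34092295 (+ strand) and Trat1 at chr16:48730774-48772021 (- strand) on mm10 by GENCODE M21. RefSeq lists 2 windows for Themis and 4 for Dgka, of which 1 is shown for each, and its starts differ from GENCODE's for Dgka, Lcp2 and Trat1. Capitals mark matches to the letters of 4 motifs given after the windows, searched on both strands.
Themis (chr10:28668110-28668359, + strand): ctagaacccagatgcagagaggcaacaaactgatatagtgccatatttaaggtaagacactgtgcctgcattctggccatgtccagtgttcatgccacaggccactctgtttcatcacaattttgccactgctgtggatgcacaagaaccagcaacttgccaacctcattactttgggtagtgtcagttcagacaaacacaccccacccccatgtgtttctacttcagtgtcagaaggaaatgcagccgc
Dgka (chr10:128745085-128745334, - strand): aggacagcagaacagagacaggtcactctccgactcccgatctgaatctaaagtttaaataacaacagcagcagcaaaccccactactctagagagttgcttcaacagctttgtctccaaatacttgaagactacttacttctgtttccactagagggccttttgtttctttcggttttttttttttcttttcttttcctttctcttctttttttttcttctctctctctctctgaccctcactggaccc
Lcp2 (chr11:34046678-34046927, + strand): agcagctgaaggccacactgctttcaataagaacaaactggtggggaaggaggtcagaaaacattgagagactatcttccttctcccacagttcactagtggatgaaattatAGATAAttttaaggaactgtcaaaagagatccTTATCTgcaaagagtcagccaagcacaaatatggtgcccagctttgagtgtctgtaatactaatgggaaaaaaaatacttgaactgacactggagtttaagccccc
Trat1 (chr16:48772063-48772312, - strand): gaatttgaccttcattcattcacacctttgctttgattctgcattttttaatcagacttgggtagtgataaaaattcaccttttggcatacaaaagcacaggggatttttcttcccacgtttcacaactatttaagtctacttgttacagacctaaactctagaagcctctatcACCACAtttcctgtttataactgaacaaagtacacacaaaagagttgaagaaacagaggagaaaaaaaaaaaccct
The Themis and Dgka windows hold none of the 4 letter strings, which says nothing of any factor's binding. Lcp2 holds GATA matches in both orientations and Trat1 a Runx match on the opposite strand, and no match overlaps one to another motif. The AP-1 motif, spelled TGANTCA, had 0 matches among the members' 28 windows and was found in 6.87% of 27025 promoter windows of the same length. For the ETS motif, spelled CCGGAAG, the values were 0 of 28 and 7.05%. The Runx motif, spelled TGTGGT, was found in 2 windows, those of Lck and Trat1, and in 14.2% of all. The GATA motif, spelled AGATAA, was found in 2, those of Cd3g and Lcp2, and in 10.3% of all.

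BATF pairs with JUN proteins and, with IRF4, shapes effector T cells, and its loss was compared in 2 designs. In BATFKO Treg against WT Treg 0 of 34 members were called with edgeR (6 at an unadjusted p below 0.05, and 1, Fyn, with DESeq2), beside 2.69% of all tested genes (1.05% higher and 1.64% lower). In BATFcKO Treg YFP against WT Treg YFP 1 of 34 was called (2.94%, beside 2.04%, 0.319% higher and 1.72% lower), Sla, which was lower. With library number added as a replicate block, the edgeR counts were 8 and 4 members. The shares of all tested genes called in that fit are not given here. Medians of the members' log2 fold changes were -0.027 and -0.059, beside -0.0035 and -0.015 over all tested genes.

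Sla was at 293 and 314 CPM in WT Treg YFP and 202 and 222 in BATFcKO Treg YFP, with no overlap (-0.52 ± 0.10, edgeR adjusted p = 0.0087). The germline pair gave 369 and 342 CPM in WT Treg and 339 and 286 in BATFKO Treg, lower in the mutant but not called (-0.19 ± 0.10, adjusted p = 0.52). A test of the difference between the 2 BATF comparisons called 0 members with edgeR (1 at an unadjusted p below 0.05, Sla, and 0 with DESeq2), beside 0.00% of all tested genes. Without WT Treg YFP library 2, BATFcKO Treg YFP library 1 or BATFcKO Treg YFP library 2, Sla was not called (edgeR adjusted p = 0.12, 0.15 and 0.05).

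Among members not called, Themis was at 77.4 and 52.9 CPM in WT Treg and 46.6 and 36.8 in BATFKO Treg (-0.64 ± 0.21, adjusted p = 0.16), but at 47.4 and 57.8 in WT Treg YFP and 43.1 and 53.0 in BATFcKO Treg YFP, where the libraries overlapped. Fyn was at 756 and 793 CPM in WT Treg and 643 and 662 in BATFKO Treg (-0.25 ± 0.08, adjusted p = 0.16). Cd28 was lower in both designs without passing in either, -0.41 ± 0.14 in BATFKO Treg and -0.26 ± 0.14 in BATFcKO Treg YFP (adjusted p = 0.17 and 0.57). Nfatc1 was at 344 and 306 CPM in WT Treg YFP and 266 and 241 in BATFcKO Treg YFP (-0.36 ± 0.17, adjusted p = 0.47). Without WT Treg library 1, Ubash3a was called in BATFKO Treg, and without BATFKO Treg library 2, Nfatc2, 1 member in each case.

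In all, 23 members were called in at least 1 of the 9 comparisons, Themis and Sla in 6, Dgka in 5 and Cd4 and Prkcq in 4. The same count was not made over all tested genes, so whether 23 of 34 is more than their share was not tested. The 11 called in none in the fit of all 13 groups were Cd3d, Cd5, Cd6, Lck, Csk, Lat, Plcg1, Vav1, Dgkz, Ubash3a and Sit1. These 11 include the first kinase of the cascade (Lck) and its inhibitor kinase (Csk), the scaffold Lat, the phospholipase and the 2 scavenger-receptor family brakes Cd5 and Cd6. All 11 were called in at least 1 comparison when only the libraries compared were fitted. In eTreg against cTreg that fit called Cd3d, Cd5, Csk, Lat, Vav1, Ubash3a and Sit1. In cTreg against Tnaive it called Cd5, Cd6, Lck, Lat, Dgkz and Sit1, and in Foxp3KO Treg it called Plcg1 among others. The shares of all tested genes called in those fits are not given here. Lck ranged from 868 to 1360 CPM over the 26 libraries, and its 95% intervals over the 9 comparisons lay between -0.47 and 0.40; that of cTreg against Tnaive was -0.46 to 0.07. For Plcg1 the interval was -0.27 to 0.26 in eTreg against cTreg and -0.18 to 0.35 in Teff against Tnaive, and for Vav1 -0.50 to 0.02 and -0.51 to 0.01. Over the 26 libraries Cd5 ranged from 532 to 1092 CPM, Cd6 from 563 to 995, Csk from 387 to 681, Lat from 544 to 1202, Dgkz from 686 to 1327 and Ubash3a from 131 to 238. The intervals bound the differences but do not show that levels were equal. A joint test over cTreg, eTreg, Tnaive and Teff called 24 of the 34 members, beside 46.7% of all tested genes. Of the 24, 1 was not called in any pair that was tested, Sit1. The pairs eTreg against Tnaive and cTreg against Teff were not tested. Sit1 was at 108 and 109 CPM in Tnaive, 81.0 and 75.3 in Teff, 69.6 and 80.0 in cTreg and 54.4 and 59.3 in eTreg. Sit1 is an adaptor that recruits phosphatases to the receptor.

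Other genes of the pathway were read from 3 lists. Of 34 other proximal genes, 13 passed in eTreg against cTreg (9 higher, 4 lower) and 19 in Teff against Tnaive (14 higher, 5 lower). These are 38.2% and 55.9% of the list, beside 31.1% and 35.3% of all tested genes. The list's median log2 fold change was -0.048 and 0.10, beside 0.0059 and 0.0094 over all tested genes. Lax1, a membrane adaptor that dampens signalling, was higher in both, by 1.52 ± 0.12 (edgeR adjusted p = 1.9e-08) and 1.61 ± 0.12 (edgeR adjusted p = 4.7e-09). Grap2, the Gads adaptor that links Lat to Lcp2, was lower in both, with -1.16 ± 0.13 (edgeR adjusted p = 1.4e-06) and -1.32 ± 0.13 (edgeR adjusted p = 1.9e-07). Txk, a Tec-family kinase, fell by 2.41 ± 0.18 on the log2 scale in eTreg, from a mean of 138 to 25.9 CPM (edgeR adjusted p = 9.2e-09). Its change differed between the lineages (-1.46 ± 0.24, edgeR adjusted p = 0.00059).

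In the lineage comparisons, 14 of these 34 genes passed in WT Treg against Tconv (10 higher, 4 lower), 11 in cTreg against Tnaive (7 higher, 4 lower) and 9 in eTreg against Teff (4 higher, 5 lower). These are 41.2%, 32.4% and 26.5% of the list, beside 18.7%, 12.2% and 15.5% of all tested genes. Cd2, an adhesion receptor, was higher in all 3 (0.63 ± 0.09, 0.58 ± 0.09 and 0.68 ± 0.09; edgeR adjusted p = 3.7e-05, 0.0001 and 2.0e-05), and so was Vav2, a relative of Vav1, by 2.38 ± 0.19, 2.84 ± 0.19 and 1.54 ± 0.17 (edgeR adjusted p = 4.2e-08, 2.7e-09 and 2.9e-06). The reporter is the human CD2, and whether its reads were counted in the row of the mouse gene was not tested.

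The Foxp3 mutants called 7 of the 34 in Foxp3R397W Treg (4 higher, 3 lower) and 9 in Foxp3KO Treg (4 higher, 5 lower), which is 20.6% and 26.5% of the list, beside 6.13% and 9.0% of all tested genes. Cd2 was lower in both (-0.43 ± 0.09 and -0.37 ± 0.09; edgeR adjusted p = 0.0058 and 0.011), as was Rhoh, a small GTPase needed for Zap70 recruitment (-0.60 ± 0.11 and -0.53 ± 0.11; edgeR adjusted p = 0.0025 and 0.0038). No gene of this list was called in either BATF comparison with edgeR, with 4 at an unadjusted p below 0.05 in BATFKO Treg and 5 in BATFcKO Treg YFP.

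Of 31 genes of the calcium, NF-kB, PI3K and Ras arms, 11 passed in eTreg against cTreg (2 higher, 9 lower) and 8 in Teff against Tnaive (4 higher, 4 lower). The shares of 35.5% and 25.8% stand beside 31.1% and 35.3% of all tested genes. The medians were -0.038 and -0.065, beside 0.0059 and 0.0094 over all tested genes. Dgkd, another diacylglycerol kinase, was lower in both (-1.03 ± 0.12 and -0.999 ± 0.12; edgeR adjusted p = 2.4e-06 and 2.7e-06), and so was Pik3cd, the PI3K catalytic subunit of leukocytes (-0.93 ± 0.17 and -0.63 ± 0.17; edgeR adjusted p = 0.00033 and 0.0067). Orai2, a subunit of the store-operated calcium channel, was lower in all 3 lineage comparisons (-0.78 ± 0.09, -0.69 ± 0.09 and -0.37 ± 0.09; edgeR adjusted p = 3.7e-06, 1.3e-05 and 0.0062). It was the 1 gene of this list called in each Foxp3 mutant, higher by 0.50 ± 0.09 and 0.41 ± 0.09 (edgeR adjusted p = 0.0019 and 0.0043). The list's counts were 7, 8 and 5 of 31 in the lineage comparisons (22.6%, 25.8% and 16.1%, beside 18.7%, 12.2% and 15.5% of all tested genes), and 0 in both BATF comparisons (edgeR; 5 and 1 at an unadjusted p below 0.05).

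The last list holds 13 genes that receptor signals induce, among them the early response factors of the Egr and Nr4a families. In eTreg against cTreg 8 were higher and 1 lower, and in Teff against Tnaive 6 were higher and 1 lower. Of all tested genes, 18.8% were higher and 12.3% lower in the first and 21.2% higher and 14.0% lower in the second. The medians were 0.78 and 0.45. Irf4, BATF's partner, rose in both (1.71 ± 0.13 and 2.53 ± 0.14; edgeR adjusted p = 9.8e-09 and 8.3e-11), Egr2 rose in both (1.74 ± 0.20 and 1.78 ± 0.21; edgeR adjusted p = 1.3e-06 and 1.3e-06) and Myc, a growth regulator, was the 1 that fell in both (-1.65 ± 0.12 and -1.49 ± 0.12; edgeR adjusted p = 4.6e-09 and 9.7e-09). Treg had more of 5 of these genes in WT Treg against Tconv and of 5 in cTreg against Tnaive, with 0 lower, and in eTreg against Teff 6 were higher and 1 lower. The shares of all tested genes that were higher were 12.1%, 7.91% and 8.21%, and 7.26% were lower in the last. Tnfrsf9, the costimulatory receptor, was higher in all 3 (3.26 ± 0.20, 3.05 ± 0.21 and 2.74 ± 0.18; edgeR adjusted p = 1.8e-09, 3.7e-09 and 5.1e-09) and lower in both Foxp3 mutants (-1.54 ± 0.18 and -1.31 ± 0.17; edgeR adjusted p = 3.6e-05 and 5.1e-05). With BATF lost, Irf4 was higher in BATFKO Treg (0.85 ± 0.12, edgeR adjusted p = 0.00042) and Myc and Dusp2, a phosphatase of MAP kinases, in BATFcKO Treg YFP (0.54 ± 0.11 and 0.62 ± 0.13; edgeR adjusted p = 0.013 and 0.013).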

How the data were processed

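RNA-seq reads of 26 libraries in 13 groups of 2 had been aligned by the authors with STAR 2.6.1c, and mm10 is the build named, per the submitters' processing notes. The deposited table holds whole-number counts of reads per gene symbol. The labels name 2 directional library kits but not the kit of each library, and the strand setting of the counting was not given in the sources used here. Of the table's columns, 4 matched no label and were not used.

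Groups were taken from the labels. Counts were filtered with filterByExpr, which left 12227 of 24411 genes, scaled with TMM and fitted with edgeR 4.0.16 (quasi-likelihood test, robust; R 4.3.3, limma 3.58.1) on all 13 groups, with 13 residual degrees of freedom shared by all comparisons. P-values were adjusted by the Benjamini-Hochberg method over all tested genes, and a gene was called at an adjusted p below 0.05. Differences between comparisons were tested as contrasts of the same fit. Library totals of 5615929 to 34613707 reads set the precision, and the tested genes held at least 99.9% of every total. The procedure was checked on simulated data. Levels are CPM on TMM-scaled totals, and levels per kilobase use merged GENCODE M21 exons.

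The members and lists were chosen with earlier results of these data known. In each comparison at most the 12 called members with the smallest p have fold changes and adjusted p in the text. Of each other list at most 6 called genes with the smallest p are named per comparison. Members that did not pass but are given with a fold change were chosen after their values were seen. The alternatives were upper-quartile scaling, no filter, DESeq2 1.42.0, fits of only the libraries compared and fits without each library. A replicate block in the germline, YFP and sorted sets was a further alternative. None of the 6 constant region genes of the receptor had a row in the table. Some genes of the other lists are counted but not reported by name here.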

Additional observations from a re-analysis of the deposited data

Results flagged for a closer look

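The change of Themis between the CCR7hiCD62LhiCD44lo and the CCR7loCD62Llo cells differed between Treg and conventional cells, by -1.06 on the log2 scale (edgeR adjusted p = 0.031, a test of the difference itself). The call was lost in 6 of 13 alternatives, each a fit without 1 library. The difference lay between -1.20 and -0.957 over the 13. Both eTreg libraries lay below both cTreg libraries, while the Teff libraries lay just above the Tnaive libraries. The Teff libraries also carried the natural killer and myeloid genes given in the report, whose part in this difference was not tested.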

How the results depend on the processing

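Of 80 named member changes 61 were called, 29 of them under each of their alternatives, and of 732 alternative values 0 reversed. Upper-quartile scaling moved the median of all genes by at most 0.0307 on the log2 scale and DESeq2 by at most 0.0247. Counts of called members that moved by more than 1.5 times follow. In WT Treg against Tconv (8) the count was 5 with no filter on low counts and 0 with only the libraries compared. With DESeq2 it was 8 in cTreg against Tnaive (4), 1 in BATFKO Treg (0), 5 in Foxp3R397W Treg (2), 6 in Foxp3KO Treg (2) and 4 in the difference between the effector comparisons (1). With only the libraries compared it was 17 in cTreg against Tnaive, 6 in Foxp3R397W Treg, 18 in Foxp3KO Treg and 6 in that difference. These counts are given without the share of all tested genes called under the same alternative, so they are not results about the members. The cause was not tested.

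Leaving out 1 library at a time gave 7 to 9 calls in WT Treg against Tconv, 2 to 3 in cTreg against Tnaive, 15 to 20 in eTreg against cTreg, 11 to 15 in Teff against Tnaive and 2 to 6 in eTreg against Teff. It gave 0 to 1 in each BATF comparison, 1 to 2 in each Foxp3 mutant, 0 to 2 in the difference between the effector comparisons, 0 in both differences between mutants and 22 to 24 in the joint test of the sorted populations.

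The labels state no pairing between libraries of different groups. In the germline, YFP and sorted sets, the names of the count columns run in order of library number across groups. What that order stands for was not given in the sources used here. The library number was added as a replicate block in the germline, YFP and sorted sets only. The count was then 23 in WT Treg against Tconv, 19 in cTreg against Tnaive and 29 in eTreg against cTreg. It was 26 in Teff against Tnaive, 15 in eTreg against Teff, 8 in BATFKO Treg and 4 in BATFcKO Treg YFP. The difference between the effector comparisons gave 9 and that between the BATF comparisons 3. The same fit called 13 in Foxp3R397W Treg and 14 in Foxp3KO Treg, although the libraries of those sets had no block. The shares of all tested genes called in this fit are not given here either. Over 12227 genes, deviations of same-numbered libraries from their group means correlated at 0.495 to 0.571 in the germline set, 0.242 in the YFP set and 0.0801 to 0.233 in the sorted set, a hint from the data and not the design.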

Other observations

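Several members had levels that went with the set of libraries. Cd3e lay between 321 and 342 CPM in the 4 libraries of the Foxp3KO set, mutant and control, and between 577 and 867 CPM in the other 22 libraries. Csk lay between 387 and 400.5 CPM in the same 4 libraries and between 478 and 681 CPM in the others. Those 4 libraries also had higher totals than the other 22. Cd28 lay between 209 and 279 CPM in the YFP set, and no library of another set was below 264 CPM. Levels were not tested across sets, and what the libraries of a set share in preparation was not given in the sources used here.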
